A study of Mus musculus with 2 samples.

Results

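The mitochondrial carriers are the proteins of the Slc25 family, including the uncoupling proteins Ucp1, Ucp2 and Ucp3. Chromatin accessibility at their genes was examined in mouse heart. Members were all protein-coding mouse genes whose RefSeq symbol begins with Slc25a, plus the 3 uncoupling protein genes. Peaks were given to a member when the gene start and end printed beside a peak matched its RefSeq span on GRCm38. RefSeq held 50 such genes. Of these, 43 had at least 1 peak, and together they held 90 of the 58076 peaks in the table.

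The assay was ATAC-seq on heart nuclei: the transposase Tn5 inserts sequencing adapters where DNA is open. The control library came from Ythdc1flox/flox mice, which carry Ythdc1 alleles flanked by loxP sites, and the knockout library from Ythdc1 CKO mice, in which the deletion is cardiac-specific. Both groups were 15 days old and on normal chow, with 1 library each. YTHDC1 is a nuclear protein that binds N6-methyladenosine in RNA. The sources used here do not give the Cre driver, the number of animals per library or any pooling. With 1 library per genotype there was no replicate check and no test, and every interval below is a 95% exact (Clopper-Pearson) interval that covers counting error only.

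Mitochondrial carriers sit in the inner membrane of mitochondria, with a few members in the outer membrane or in peroxisomes. They move nucleotides, phosphate, organic acids, amino acids, acylcarnitines, cofactors and iron across a membrane that is otherwise closed to them, and the uncoupling proteins let protons leak back. In heart muscle, where ATP is made almost entirely in mitochondria, the ADP/ATP carrier Slc25a4 and the phosphate carrier Slc25a3 bring in the substrates of ATP synthase.

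The sequences shown are the 250 bases before the RefSeq start of the members at the extremes of the promoter values, together with the main cardiac ADP/ATP carrier. They were copied from RefSeq promoters on GRCm38.p6 and are written 5′ to 3′ on the strand of the gene, with each CpG dinucleotide in capitals. Slc25a45 (chr19:5877572-5877821, plus strand), Slc25a16 (chr10:62920383-62920632, plus strand) and Slc25a36 (chr9:97111042-97111291, minus strand) are among the members with the highest knockout-to-control ratios. Slc25a4 (chr8:46211063-46211312, minus strand), Ucp3 (chr7:100472741-100472990, plus strand) and Ucp2 (chr7:100493108-100493357, plus strand) are among those with the lowest at the strongest promoter peak. For Ucp2 that peak does not hold the stretch shown.
Slc25a45: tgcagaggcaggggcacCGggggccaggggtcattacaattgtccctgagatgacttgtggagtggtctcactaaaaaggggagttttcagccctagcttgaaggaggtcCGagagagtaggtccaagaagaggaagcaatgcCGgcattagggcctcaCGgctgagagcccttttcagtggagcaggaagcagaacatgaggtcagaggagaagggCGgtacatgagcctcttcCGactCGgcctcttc
Slc25a16: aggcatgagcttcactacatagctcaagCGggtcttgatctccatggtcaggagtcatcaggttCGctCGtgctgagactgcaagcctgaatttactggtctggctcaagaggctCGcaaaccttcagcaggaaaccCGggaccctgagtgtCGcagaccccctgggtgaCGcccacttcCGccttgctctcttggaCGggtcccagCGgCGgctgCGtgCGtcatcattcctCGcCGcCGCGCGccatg
Slc25a36: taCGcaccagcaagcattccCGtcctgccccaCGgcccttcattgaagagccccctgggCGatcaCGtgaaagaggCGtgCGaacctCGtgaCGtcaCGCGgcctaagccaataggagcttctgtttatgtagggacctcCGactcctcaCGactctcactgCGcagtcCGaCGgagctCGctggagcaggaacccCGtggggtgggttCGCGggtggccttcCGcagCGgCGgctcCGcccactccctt
Slc25a4: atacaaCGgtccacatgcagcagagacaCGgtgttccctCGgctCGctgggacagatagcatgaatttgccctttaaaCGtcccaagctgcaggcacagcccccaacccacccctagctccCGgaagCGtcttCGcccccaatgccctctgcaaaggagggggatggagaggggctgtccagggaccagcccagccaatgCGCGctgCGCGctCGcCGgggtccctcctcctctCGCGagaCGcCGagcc
Ucp3: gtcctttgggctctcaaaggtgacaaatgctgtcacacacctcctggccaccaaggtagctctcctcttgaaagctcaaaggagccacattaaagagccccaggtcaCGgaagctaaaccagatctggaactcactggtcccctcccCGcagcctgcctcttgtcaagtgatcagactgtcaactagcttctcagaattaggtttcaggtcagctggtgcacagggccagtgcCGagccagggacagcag
Ucp2: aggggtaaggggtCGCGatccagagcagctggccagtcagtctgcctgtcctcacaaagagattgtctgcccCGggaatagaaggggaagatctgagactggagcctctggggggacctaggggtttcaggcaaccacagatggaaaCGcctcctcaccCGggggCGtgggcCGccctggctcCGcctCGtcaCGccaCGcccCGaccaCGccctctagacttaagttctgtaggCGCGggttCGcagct

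CpG content differed widely among these stretches at both ends of the range. Ucp3 held 3 CpG and Slc25a4 held 18, and Slc25a45 held 7 and Slc25a36 held 24. The stretches of Slc25a16, Slc25a36, Slc25a4 and Ucp3 lie inside the strongest promoter peak of their gene. That of Slc25a45 is partly covered by it, and that of Ucp2 lies in a different promoter peak of the gene from the strongest.

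In windows from 250 bases before to 50 bases after a RefSeq start, members were richer in CpG than genes at large. RefSeq gave 49 such windows for 39 of the 50 members. The median was 15 CpG per member window, from 1 in Slc25a34 to 51 at 1 start of Slc25a15, a mitochondrial ornithine carrier, and 7 over all 32851 windows. Median GC content was 59.7% in member windows and 52.7% in all windows. Over the 27 genes with a window over their strongest promoter peak, Spearman's rho between CpG number and the log2 ratio (knockout over control) was -0.35, given as a description over genes that share both libraries. The 7 genes with fewer than 15 CpG had a median log2 ratio of 0.03 and the 20 genes with 15 or more had -0.08. Median control counts were 187 and 352.5, so the CpG-rich genes also held more signal.

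Letter matches to 4 motifs were counted in these windows on both strands, and a match is not evidence of binding. The ETS family motif CCGGAAG was in 7 of 49 member windows (14.3%), those of Slc25a3, Slc25a4, Slc25a17, Slc25a20, Slc25a25, Slc25a38 and Slc25a54, and in 8.86% of all windows. The NRF1 motif GCGCATGC was in 2 member windows (4.08%), of Slc25a31 and Slc25a54, and in 2.71% of all. The estrogen-related receptor motif TNAAGGTCA and the MEF2 motif TAAAAATA were in 0 member windows, and in 1.28% and 2.72% of all windows. No motif contains another, and CCGGAAG and GCGCATGC hold CpG, which member windows have more of.

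Most carrier genes were open at their promoter in both libraries. A promoter peak, defined as lying within 1 kb of an annotated transcription start, was present for 40 of the 50 members. Of the 90 member peaks, 52 (57.8%) were promoter peaks, whereas 33.4% of all peaks were. All peaks include those of identifiers with no protein-coding name. The other 38 comprised 13 in introns, 13 distal intergenic, 5 in the promoter flank at 1 to 3 kb, 4 downstream, 2 labelled 3′ UTR and 1 exonic. Of the 43 genes, 24 had a single peak, and Slc25a4, Slc25a13, Slc25a25, Slc25a30 and Ucp2 had 5 or more.

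No peak was assigned to Slc25a2, Slc25a18, Slc25a37, Slc25a41, Slc25a47, Slc25a54 or Ucp1. The promoter windows of Slc25a18, Slc25a47, Slc25a54 and Ucp1 lay over no peak of any gene. For Slc25a2, Slc25a37 and Slc25a41 there was no window, so a peak assigned to another identifier could have been missed. Slc25a37 encodes mitoferrin 1, the iron carrier of developing red blood cells, and Ucp1 the uncoupling protein of brown fat. The table holds counts for called peaks alone, so these 7 genes have no count here. Slc25a31, Slc25a40 and Slc25a43 had a peak but no promoter peak assigned to them. The start of Slc25a40 lay under a peak assigned to its neighbour Dbf4, with 369 control and 351 knockout counts.

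Counts in peaks summed to 6755590 for the control library and 6466537 for the knockout library. Member peaks took 18187 (0.269%) and 16616 (0.257%) of them. Ythdc1 had 1 peak, with 358 and 314 counts and a ratio of 0.916 (0.785 to 1.07). That peak does not test the deletion, because the sources used here do not say which part of the gene is floxed.

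The strongest promoter peak of each member was compared with the strongest promoter peak of every identifier in the table. These include identifiers with no protein-coding name, whereas every member has one, so the sets differ in more than gene family. Member peaks were wider, with a median of 828 bp against 673 bp, and held more signal per length. Their median level was 51.6 CPM (counts scaled to the same total over all peaks) per kb of peak in the control and 52.9 in the knockout, against 40.1 and 39.4 over all 14854 identifiers. Per length, the Slc25a4 promoter had the highest level of all members in the control library, at 111 CPM per kb, and 84.4 in the knockout. Slc25a34, a carrier with no settled substrate, had 91.9 and 107, so these 2 genes changed places between the libraries. The lowest level in both was that of Slc25a48, at 17.9 and 11.9. Between these ends, neighbours in the order mostly differed by a few CPM per kb, as the plot of levels by gene shows.

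**Figure D1:**
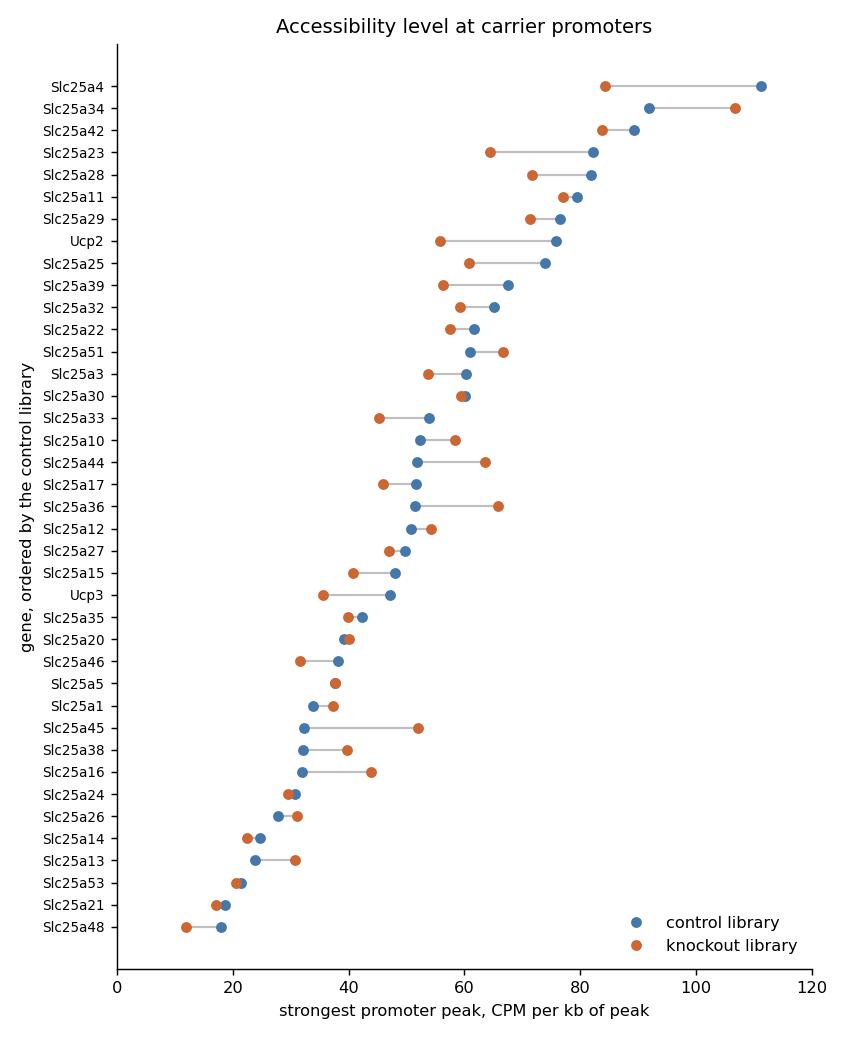
Level of the strongest promoter peak of 39 of the 40 carrier genes with one (1 is not shown), in CPM per kb of peak (horizontal axis), for the control library (blue) and the knockout library (orange), with genes ordered by the control library. Slc25a4 is highest in the control at 111 and Slc25a34 highest in the knockout at 107, and Slc25a48 is lowest in both.

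Carrier promoters had ratios near 1, with small differences in both directions. The log2 ratio of knockout over control CPM, after adding 0.5 counts to each library, had a median of -0.09 over the 40 members and -0.02 over all 14854 strongest promoter peaks. It ranged from -0.58 to 0.68 with an SD of 0.26, against an SD of 0.44 over all. The ratio was below 1 for 26 members (65.0%) and above 1 for 14, while 53.2% of all strongest promoter peaks were below 1. Scaling decides part of this split, which was 24 to 16 with TMM and 33 to 7 on the authors' RPM scale, where the median of all peaks itself was -0.22.

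Counting error covered most of these differences. The interval lay above 1 for 6 of 40 members, where 14.1% of all strongest promoter peaks did so. It lay below 1 for 8 of 40, beside a background of 16.9%. Both member counts were near their background. They hold for the main scaling alone. Some bounds lay close to 1, such as 0.998 at Slc25a15 and 1.002 at Slc25a34, and a small shift in scaling moves them across it. No strongest promoter peak of a member was 2-fold higher or lower.

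**Figure D2:**
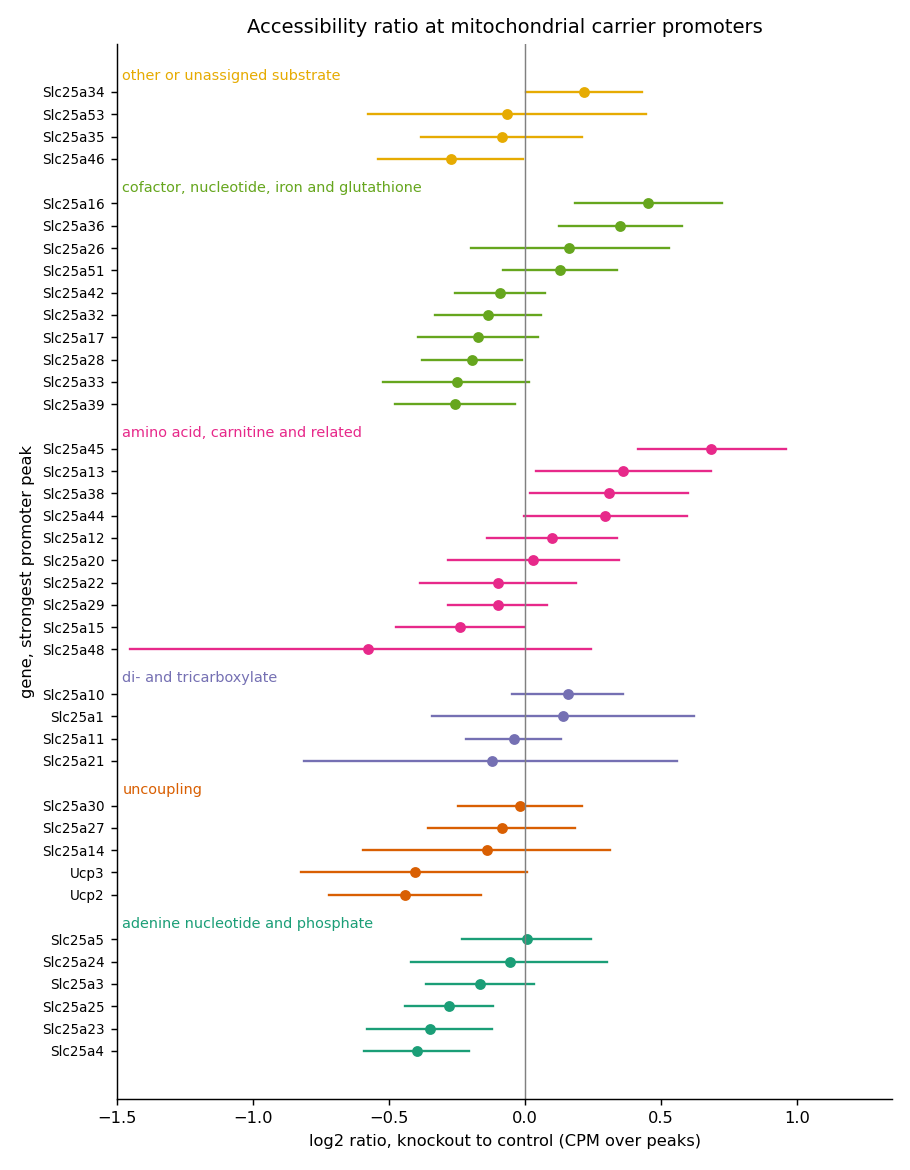
Log2 ratio of knockout to control at the strongest promoter peak of 39 of the 40 carrier genes with one (1 is not shown; horizontal axis), grouped and coloured by what the carrier moves. Points are the ratios and lines the 95% exact counting intervals, and values run from -0.58 (Slc25a48) to 0.68 (Slc25a45).

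In the adenine nucleotide and phosphate group, 5 of 6 promoters had fewer normalised counts in the knockout library, with a median log2 ratio of -0.22. Over all strongest promoter peaks, 53.2% had a ratio below 1. The same 5 to 1 split held with TMM scaling, and all 6 were lower on the RPM scale and after removing a loess trend on signal. The interval was below 1 for 3 of them (background 16.9%) and above 1 for 0 (background 14.1%), in a group of only 6 promoters.

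Slc25a4, the main ADP/ATP exchanger of heart and skeletal muscle, had 529 control and 384 knockout counts at its strongest promoter peak (chr8:46210845-46211548). The ratio was 0.758 (0.663 to 0.867), a log2 ratio of -0.40. Slc25a5, the more widely expressed ADP/ATP carrier, had 304 and 292 counts and a ratio of 1.003 (0.852 to 1.18). Slc25a31, the ADP/ATP carrier of the male germ line, had no promoter peak.

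Slc25a3, the mitochondrial phosphate carrier, had 457 and 390 counts and a ratio of 0.892 (0.777 to 1.02), an interval that includes 1. The other members with promoter peaks are calcium-regulated carriers that exchange ATP-Mg for phosphate. Slc25a23 had 365 and 274 counts, a ratio of 0.784 (0.668 to 0.920). Slc25a25 had 724 and 571 counts, the largest control count of any member promoter, and a ratio of 0.824 (0.737 to 0.921). Slc25a24 was closer to even, with 137 and 126 counts and a ratio of 0.961 (0.748 to 1.23). The strongest promoter peak of Slc25a25 also covers Naif1, a neighbouring gene, and that of Slc25a24 covers Gm19391, so these counts cannot be divided between the genes.

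The strongest promoter peaks of all 5 genes of the uncoupling group had ratios below 1 (background 53.2%), with a median log2 ratio of -0.14. With TMM scaling, 1 of the 5 was above 1, and for Ucp2 the direction depends on the peak used. Ucp2, found in many tissues, had 261 control and 184 knockout counts at its strongest promoter peak (chr7:100495454-100495963) and a ratio of 0.737 (0.607 to 0.893). This was the only interval of the group below 1. The strongest peak of Ucp2 is centred 2371 bp past the RefSeq start. Its peak over that start had a ratio of 1.24 (1.01 to 1.52), on the other side of 1. Ucp3, the uncoupling protein of muscle and brown fat, had 119 and 86 counts, a ratio of 0.755 (0.565 to 1.005), and its peak was called in the control library alone.

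The 3 further members of this group are brain- and kidney-associated homologs of the uncoupling proteins, and all were within counting error of even. Slc25a14 had 91 and 79 counts and a ratio of 0.907 (0.662 to 1.24). Slc25a27 had 244 and 220 counts at a promoter shared with Cyp39a1, a ratio of 0.942 (0.781 to 1.14). Slc25a30 had 331 and 313 counts, a ratio of 0.988 (0.844 to 1.16).

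The di- and tricarboxylate carriers showed no interval away from 1 and were evenly split, with 2 promoters above and 2 below. The split depends on scaling: it was 3 to 1 with TMM and 0 to 4 on the RPM scale. Slc25a10, the dicarboxylate carrier, was highest with 387 and 413 counts and a ratio of 1.115 (0.968 to 1.28). Slc25a11, the oxoglutarate-malate carrier of the malate-aspartate shuttle, had 567 and 527 counts and a ratio of 0.971 (0.861 to 1.10), at a promoter it shares with Rnf167. The citrate carrier Slc25a1 and the oxodicarboxylate carrier Slc25a21 had at most 77 counts at these peaks, with log2 ratios of 0.14 and -0.12.

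Among amino acid and carnitine carriers, 6 of 10 promoters were above 1 and 4 below, with a median log2 ratio of 0.06, and 4 were above on the RPM scale. The interval was above 1 for 3 (background 14.1%) and below 1 for 1 (background 16.9%). Slc25a45 had the highest ratio of any member, with 187 control and 288 knockout counts at chr19:5877667-5878522 and a ratio of 1.61 (1.33 to 1.95). Slc25a13, the aspartate-glutamate carrier citrin, had 149 and 183 counts and a ratio of 1.28 (1.03 to 1.60). Its paralog Slc25a12, the main aspartate-glutamate carrier of heart and brain, had 288 and 295 counts and a ratio of 1.07 (0.907 to 1.26).

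Slc25a38, which brings glycine into mitochondria for heme synthesis, had 184 and 218 counts and a ratio of 1.24 (1.01 to 1.51). Slc25a44, a carrier of branched-chain amino acids, had 172 and 202 counts and a ratio of 1.23 (0.996 to 1.51). Slc25a15, the ornithine carrier, lay on the other side with 333 and 270 counts and a ratio of 0.847 (0.719 to 0.998). Slc25a20, the carnitine-acylcarnitine carrier that fatty acid oxidation in heart depends on, was near even with 173 and 169 counts and a ratio of 1.02 (0.821 to 1.27). Slc25a29, a carrier of basic amino acids, had 529 and 472 counts and a ratio of 0.932 (0.822 to 1.06). The lowest log2 ratio of all, -0.58 at Slc25a48, rested on 33 and 21 counts, and its interval (0.366 to 1.18) includes 1.

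In the cofactor, nucleotide, iron and glutathione group, 4 promoters were above 1 and 7 below, with a median log2 ratio of -0.14. Slc25a16, linked to coenzyme A in mitochondria, had 203 and 266 counts and a ratio of 1.37 (1.14 to 1.65). Slc25a36, a pyrimidine nucleotide carrier, had 299 and 365 counts and a ratio of 1.28 (1.09 to 1.49). The other pyrimidine nucleotide carrier, Slc25a33, had 260 and 209 counts and a ratio of 0.840 (0.697 to 1.01). The intervals of these 2 carriers of like substrates did not meet, but both genes are among the extremes picked by ratio. The gap is therefore not a test of a difference.

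Slc25a39, required for mitochondrial glutathione, had 385 and 308 counts and a ratio of 0.836 (0.717 to 0.973). A second promoter peak of Slc25a39 had 354 and 307 counts, a ratio of 0.906 (0.775 to 1.06). Slc25a28, mitoferrin 2, had 538 and 450 counts and a ratio of 0.874 (0.769 to 0.992), at a promoter it shares with BC037704. Intervals that include 1 were found for the carriers of coenzyme A (Slc25a42), NAD+ (Slc25a51), S-adenosylmethionine (Slc25a26) and folate or FAD (Slc25a32), for the peroxisomal carrier Slc25a17 and for Slc25a33 above. Their log2 ratios ran from -0.25 to 0.16.

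The group without a settled substrate had 1 promoter above 1 and 3 below. Slc25a34 had 349 and 388 counts and a ratio of 1.16 (1.002 to 1.346), with a lower bound only just above 1. Slc25a46, an outer membrane protein tied to mitochondrial shape, had 269 and 213 counts and a ratio of 0.827 (0.688 to 0.994). Slc25a35 and Slc25a53 had log2 ratios of -0.09 and -0.07, within counting error.

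Outside promoters the member peaks were smaller and more spread. The 38 peaks had median counts of 60 (control) and 46 (knockout), and log2 ratios from -2.15 to 1.57 with a median of -0.29, against -0.09 over all 38710 such peaks. The ratio was below 1 for 22 and above 1 for 16, a split that TMM scaling and loess trend removal left in place and the RPM scale turned to 27 and 11. The interval was above 1 for 8 of 38 peaks (background 18.9%) and below 1 for 11 of 38 (background 24.1%). Slc25a13 alone held 6 of these peaks. Without it the median was -0.08 over 32 peaks, with 16 below 1, and over the 15 member peaks outside promoters with mean CPM above the median of all peaks it was 0.00.

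The library in which a peak was called goes with its ratio, since a peak called in 1 library alone was picked for signal there. Member peaks outside promoters called in both libraries had a median log2 ratio of -0.08 (14 peaks; all such peaks 0.04). Those called in the control alone had -0.51 (16 peaks; all -0.70), and those called in the knockout alone 0.79 (8 peaks; all 0.84). Over all 90 member peaks, 58 (64.4%) were called in both, 22 (24.4%) were called for the control only and 10 (11.1%) for the knockout only. The same shares over all peaks were 55.0%, 29.1% and 15.9%.

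A difference of 2-fold was rare. A knockout level at least 2-fold above the control was seen at 3 of the 90 member peaks (background 6.09% of all peaks) and the reverse at 6 (background 8.96%). All 9 had been called in 1 library alone, and removing a loess trend on signal turned the 3 and 6 into 5 and 4. The 3 higher peaks were in Slc25a36 with 6 and 18 counts, in Slc25a43 with 14 and 36, and at an inner promoter of Ucp2 with 54 and 112. The lower peaks included 3 of Slc25a13 and 1 each assigned to Slc25a15 (28 and 9 counts) and Slc25a17 (51 and 16). The peak assigned to Slc25a15 lies in the neighbouring gene Tpte.

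**Figure D3:**
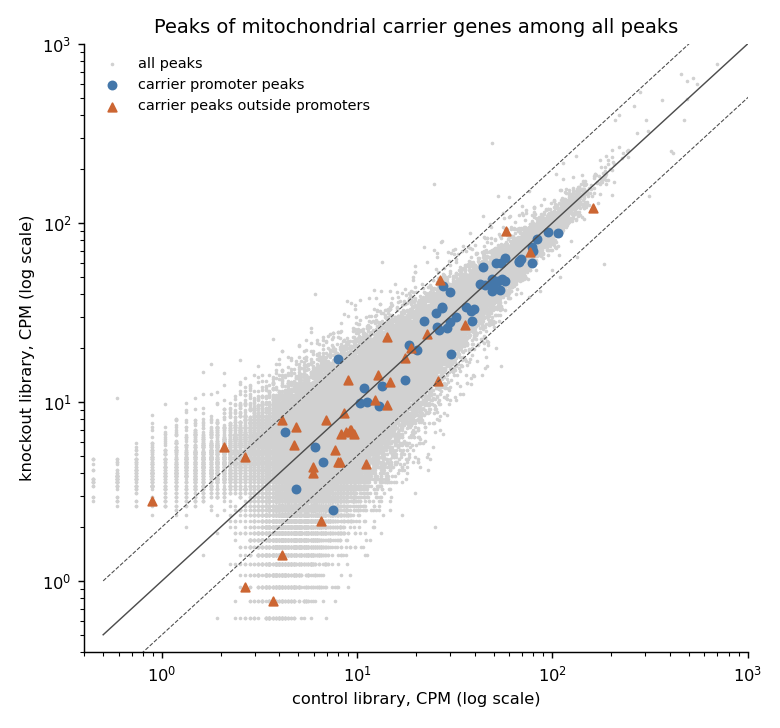
CPM in the control library (horizontal, log scale) and the knockout library (vertical, log scale) for all 58076 peaks (grey), carrier promoter peaks (blue circles) and carrier peaks outside promoters (orange triangles). The solid line marks equal values and the dashed lines a 2-fold difference; 3 member peaks lie above the dashed band and 6 below it.

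Slc25a13 showed opposite values at its promoter and within its body. Its 6 peaks outside the promoter all had ratios below 1, but 4 of them were called in the control alone and so were picked for signal there. The largest of the 6 (chr6:6185029-6185578), an intronic peak 32001 bp into the gene, was called in both libraries and had 176 and 85 counts, a ratio of 0.504 (0.385 to 0.657). The promoter ratio of 1.28 (1.03 to 1.60) lay on the other side of 1, and its interval did not meet that of this peak. Both are among the extremes picked by ratio, so this is not a test of a difference.

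A neighbouring intronic peak at chr6:6185721-6185920 had 55 and 30 counts, and another at chr6:6183656-6184013, called in both libraries, had 83 and 66, a ratio of 0.831 (0.592 to 1.16). Further into the gene, the peak at chr6:6088154-6088514 had 75 and 29 counts, a ratio of 0.404 (0.254 to 0.628). The last 2 peaks were faint, with 18 and 6 and with 25 and 5 counts. All 6 lie inside the RefSeq span of Slc25a13. To set this in context, a comparison chosen after the values were seen took the 1152 identifiers with at least 6 peaks outside promoters. All such peaks were below 1 in 38 of them (3.30%), and 3 or more were at least 2-fold lower in 91 (7.90%).

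Slc25a4 held 7 peaks whose ratios lay on both sides of 1. The largest peak of any member (chr8:46203345-46204840), 6970 bp past the gene start and downstream of the gene, had 1089 and 786 counts and a ratio of 0.754 (0.687 to 0.827), and was called in the control alone. A peak in the promoter flank, called in both libraries like the promoter peak, had 242 and 174 counts, a ratio of 0.751 (0.615 to 0.917). The peak at chr8:46201049-46201930, 9573 bp past the start, went the other way with 392 and 584 counts and a ratio of 1.56 (1.37 to 1.77), and was called in the knockout alone. It lies between Slc25a4 and Cfap97, 5238 bp from the first and 5459 bp from the second, so its assignment to Slc25a4 rests on distance. The remaining 3 peaks were within counting error of even, at 522 and 447, 178 and 163, and 154 and 155 counts.

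Ucp2 had peaks on both sides of 1. Of its 4 promoter peaks, the strongest had a ratio below 1 as given above, whereas the peak over the RefSeq start (chr7:100492922-100493484) had 183 and 217 counts and a ratio of 1.24 (1.01 to 1.52). Another (chr7:100494501-100494757), called in the knockout alone, had 54 and 112 counts, a ratio of 2.17 (1.55 to 3.06), and the last had 195 and 167. The 2 peaks labelled 3′ UTR in the table had 96 and 150 counts and 179 and 309 counts, with ratios of 1.63 (1.26 to 2.13) and 1.80 (1.495 to 2.18), the first called in the knockout alone and the second in both libraries. Both lie past the RefSeq end of Ucp2 and nearer to Dnajb13, at 1329 and 295 bp from it.

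Slc25a25 had 4 of 6 peaks below 1, of which 2 were called in the control alone, while a distal peak called in the knockout alone had 28 and 51 counts, a ratio of 1.90 (1.18 to 3.13). For Slc25a30 all 5 peaks were below 1, of which 2 were called in the control alone. Its lowest was the peak 13425 bp into the gene, called in both libraries, with 96 and 62 counts and a ratio of 0.675 (0.482 to 0.938). The intervals of its other 4 peaks include 1.

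**Figure D4:**
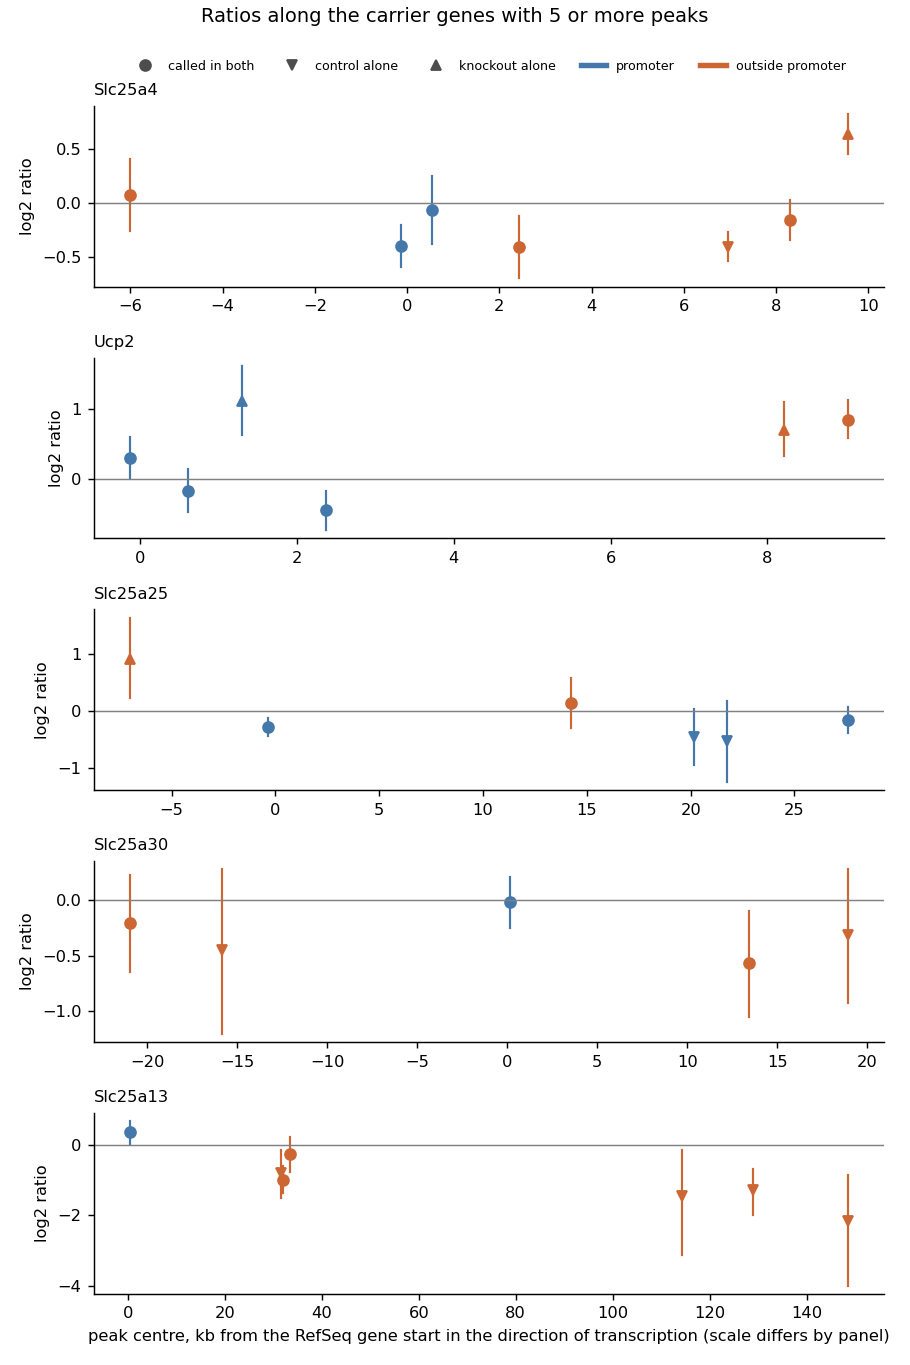
Log2 ratio of knockout to control (vertical) for each peak of the 5 carrier genes with 5 or more peaks, by distance of the peak centre from the RefSeq start in kb along the direction of transcription (horizontal, scale differs by panel). Points mark peaks, lines the 95% exact counting intervals, colours promoter or not, and shapes the library in which a peak was called; the 6 peaks inside Slc25a13 lie below 0 and its promoter above, and Slc25a4 and Ucp2 have peaks on both sides.

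Some other members also had peaks outside promoters with intervals that left out 1, and those with at least 50 counts are given here. An intronic peak of Slc25a12 had 61 and 86 counts, a ratio of 1.47 (1.05 to 2.08). The only peak of Slc25a31, called in both libraries, had 54 and 30 counts, a ratio of 0.580 (0.359 to 0.923), and lies 148 bp from Intu and 3452 bp from Slc25a31. Slc25a22, a glutamate carrier, had a second promoter peak at an inner start with 205 and 120 counts, a ratio of 0.612 (0.484 to 0.770). Its strongest promoter peak had 216 and 193 counts, a ratio of 0.934 (0.765 to 1.14), and this pair was singled out after its values were seen. Further peaks outside promoters with at least 50 counts, assigned to Slc25a25, Slc25a42 and Slc25a51, had intervals that include 1, as did those of Slc25a10 and Slc25a21. Those of Slc25a51 lie in or beside Shb and Gm46852. Of the 38 peaks, 16 overlap the member they were assigned to, 6 overlap another gene alone and 16 overlap no RefSeq gene.

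Other genes for transport across mitochondrial membranes were listed beside the carriers, and the difference between the lists was not tested. The list held pyruvate carriers, voltage-dependent anion channels, the calcium uniporter and its partners, sideroflexins and ABC transporters. Of its 25 genes, 22 had a promoter peak, 13 above 1 and 9 below, with a median log2 ratio of 0.02, against -0.09 for the carriers. Values ran from -0.46 at Mcu, the pore of the calcium uniporter, with 368 and 256 counts, to 0.76 at Sfxn3, a sideroflexin, with 326 and 530 counts. The interval was above 1 for 4 (background 14.1%) and below 1 for 2 (background 16.9%).

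Cell type markers differed between the libraries by more than most carriers did. Of 8 cardiomyocyte markers, 7 had promoter ratios below 1 (background 53.2%) and 6 had intervals below 1 (background 16.9%). Their median log2 ratio was -0.57, and their summed levels were 417 CPM in the control and 335 in the knockout. Myh6 and Tnnt2, both defining markers, were near even at -0.01 and 0.19, while Pln was lowest with 186 and 78 counts. Summed promoter levels were higher in the knockout for 5 endothelial markers (90.9 and 107 CPM). Of these, Kdr was lower at a log2 ratio of -0.06, and only the interval of Vwf lay above 1. The sums were also higher for 5 fibroblast markers (81.4 and 104 CPM, with Col1a1 and Dcn lower, at log2 ratios of -0.14 and -0.76). The same held for 3 smooth muscle markers (32.7 and 47.0 CPM), where only the interval of Tagln lay above 1. Of 6 adipocyte markers, Adipoq, Plin1 and Lep had no promoter peak. The other 3 summed to 51.5 and 62.3 CPM, and each of their intervals included 1. No promoter peak was listed for the 3 myeloid markers, for Alas2 among the erythroid markers, or for Actn3, Myod1 and Myog among 5 skeletal muscle markers. All 8 cardiomyocyte markers had a promoter peak in this heart tissue. In tissue libraries fewer cells of a type and less open chromatin per cell cannot be told apart, and the part of cell composition in the carrier values was not tested.

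**Figure D5:**
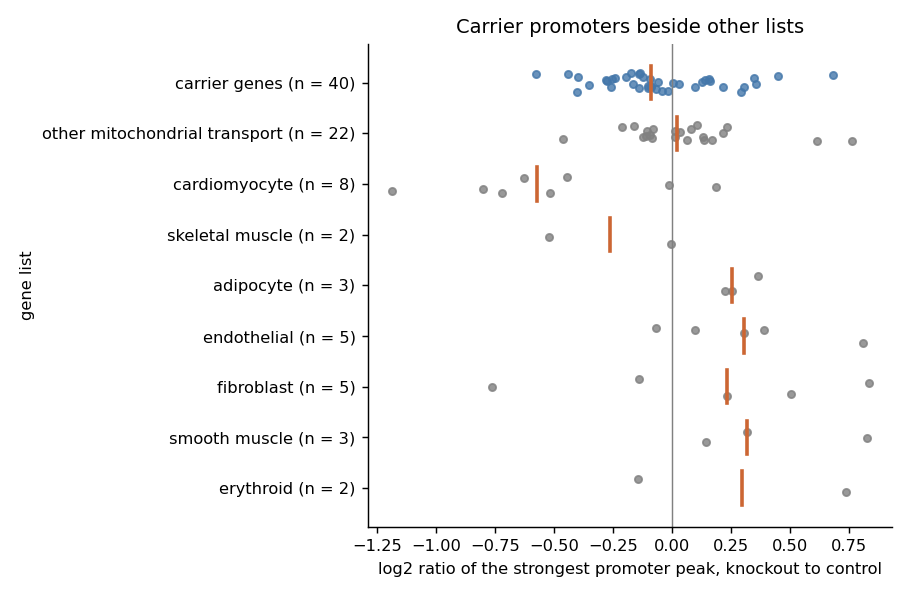
Log2 ratio of knockout to control at the strongest promoter peak (horizontal) for carrier genes and for each other list (vertical, n genes with a promoter peak). Points are genes and orange bars medians, which lie at -0.09 for carriers, 0.02 for other mitochondrial transport genes and -0.57 for cardiomyocyte markers.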

How the data were processed

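The authors deposited 1 table of merged peaks with whole-number counts per peak for both libraries, not normalized, beside RPM, fold enrichment (a ratio) and a log2 fold change, per the file headers. Alignment and peak tools in the submitters' processing notes are BWA and MACS2, and the build is GRCm38.p6. For read filters, duplicate removal, Tn5 shift and counting unit, nothing is given in the sources used here. If duplicates were kept, counts are not independent molecules and intervals are too narrow. Classes are the authors' annotation, per the file headers, with distances recomputed from RefSeq.

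Gene identifiers in the table carry no symbols. They were matched by chromosome and span, without use of strand. A match needed overlap over union of at least 0.5 and 2.0 times the next candidate, or both gene ends within 1 kb. Failing that, 95% of the identifier's span had to lie inside a single RefSeq gene whose symbol was not yet used. This last rule was applied only to identifiers with a Gene Ontology entry. These rules named 14130 of 24480 identifiers (57.7%), 40 members by overlap or gene ends and 3 (Slc25a14, Slc25a20, Slc25a40) by containment. Counts were scaled to CPM over the table's peaks, 0.5 counts were added for log2 ratios, and exact 95% intervals were computed with Python 3.11.15, pandas 2.3.3, NumPy 2.4.6, SciPy 1.17.1 and statsmodels 0.14.6, and figures with matplotlib 3.10.9. TMM used edgeR 4.0.16 in R 4.3.3 for scaling alone. Scripts were tested on simulated data.

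Full values were given for the adenine nucleotide, phosphate and uncoupling promoters, the 8 highest and 8 lowest member promoters with promoter signal above the median, the 8 highest and lowest peaks outside promoters with at least 50 counts, and genes with 5 or more peaks. Members and lists were chosen with earlier results of these data known. The values of some genes are not reported here.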

Additional observations from a re-analysis of the deposited data

How the results depend on the processing

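On the authors' RPM scale, which shifts log2 ratios by -0.17, the median over member promoters was -0.26 (main -0.09), over all member peaks -0.31 (main -0.14) and over peaks outside promoters -0.46 (main -0.29). The other alternatives for these medians (TMM, median of all peaks at 0, loess trend removed, peaks called in both libraries, fold enrichment of at least 10, names with both gene ends within 1 kb, 5 counts added, mean CPM above the median, the mean over promoter peaks and promoters within 3 kb) left them inside the exact 95% binomial interval of the main median over the member peaks, although the median outside promoters was 0.00 over the 15 peaks above the median CPM. Peaks at least 2-fold higher numbered 3, and 5 with the loess trend removed, 1 each with fold enrichment of at least 10, with strict names (31 genes) and above the median CPM, 0 among peaks called in both libraries and 10 by a 1.5-fold rule. Peaks at least 2-fold lower numbered 6, and 4 with the loess trend removed, so that higher then outnumbered lower, 3 with fold enrichment of at least 10, 0 above the median CPM, 0 among peaks called in both and 10 by the 1.5-fold rule. The filters test fewer peaks. The interval of a median reflects spread among members, which share both libraries, so staying inside it is a loose standard. For the 39 peaks given in full, 5 other scalings, chosen after seeing the data, gave 195 values, of which 194 stayed within the counting interval and 1 did not: a Slc25a25 promoter, at -0.45 on the RPM scale. The intervals were not recomputed on these scalings, so this does not show on which side of 1 they would lie. A change in the overlap used to merge peaks was not run, as the table holds merged intervals. No paired analysis was possible because each genotype had 1 library, and leaving out a replicate was not possible for the same reason. Depth limits peaks under 50 counts most, where an interval spans several-fold.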
